A study of Mus musculus with 2 samples.

Results

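Qk, Adar, Dhx9, Ilf2, Mbnl1, Mbnl2 and Hnrnpl encode RNA-binding proteins that act on the production of circular RNAs (circRNAs). They were taken by symbol from the gene rows of the count table the authors deposited, and are 7 of its 25509 genes. The study silenced circCsnk1g3, a circRNA made from the Csnk1g3 gene, in mouse soft-tissue sarcoma (STS) cells and compared their RNA with that of control cells. The cells were of strain C57BL/6 and derived from mesenchymal stem cells that lacked p53 and overexpressed Ccne1, the gene of cyclin E1, from a retroviral vector (p53-/-Ccne1+). They had grown as subcutaneous tumors, had then been seeded in the lungs of further mice, and were taken back from sarcoma foci there before they were transduced. The shCTR group was transduced with a control hairpin, which the article calls shSCR, and the shcircCsnk1g3 group with a hairpin against the backsplice junction of circCsnk1g3, both in a lentiviral pLKO.1 vector. Both groups therefore share the p53 loss, the Ccne1 transgene and the passage through mice. The number of mice or cultures behind each library is not stated. Each group was 1 library of poly(A) RNA, so there was no replicate spread and no test between conditions was made.

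A circRNA arises by back-splicing, in which a splice donor is joined to an acceptor that lies upstream of it in the same pre-mRNA, in competition with linear splicing. The reaction is favoured when the introns that flank the circularised exons come together, either through pairing of inverted repeats or through proteins that bind both introns. QKI, MBNL1 and HNRNPL are known to favour circles by binding intron motifs. ADAR and DHX9 act in the opposite direction, by editing and by unwinding the paired repeats. The product of Ilf2 is part of a protein complex that binds double-stranded RNA.

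The depth was 42709996 estimated counts for shCTR and 38792143 for shcircCsnk1g3. Of 10 mesenchymal marker genes, 9 passed the count filter, and their summed level was 10360.3 CPM (counts relative to the library size) after silencing and 10794.7 CPM in the control, with single changes from -0.69 (Ly6a) to 0.37 (Col3a1) on the log2 scale. Of the 9, 7 were lower, 5 of them with an interval below 0, and 2 were higher, both with an interval above 0. Of all genes tested, 28.2% had an interval below 0 and 26.9% one above 0. Thy1, also a mesenchymal marker, had 0 and 1 counts. Of the other cell types, 1 of 8 leukocyte markers (Cd68), 1 of 6 endothelial markers (Cdh5) and 0 of 7 lung epithelial markers passed the filter, and Cd3e, Lyz2, Kdr, Epcam and Sftpc were at 0 in both libraries. Cd68 had 87 counts after silencing and 155 in the control, a change of -0.71 (-1.12 to -0.34) on the log2 scale, and Cdh5 had 10 and 16. Csnk1g3 itself, with 2159 counts after silencing against 2411, changed by -0.05 (-0.14 to 0.03) on the log2 scale. Circles carry no poly(A) tail, so this value is that of linear Csnk1g3 RNA, and how far circCsnk1g3 was depleted is not measured by it. Trp53 had 3841 and 4334 counts and Ccne1 893 and 963. These counts do not check the gene loss or the transgene, since reads outside a deleted part or from the transgene are not distinguished.

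Adar is the member whose own start sites differ in their known control, so both of its promoter regions are shown, as given by RefSeq for GRCm38.p6 on the plus strand of chromosome 3. Each window runs from 250 bases before a RefSeq start to 50 bases after it. In the GENCODE M21 annotation, transcript Adar-202 starts at 89715022 and encodes 930 residues from a start codon at 89735558, which is the length of the short nuclear form, p110. Transcript Adar-203 starts at 89730748 and encodes 1178 residues from a start codon at 89730811, which is the length of the long form, p150. The p150 form is known to be made from an interferon-inducible promoter, and the p110 form from a constitutive one. Capitals mark matches to GAAANNGAA or GAAANGAAA, spellings related to the interferon-stimulated response element.

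Adar upstream window, chr3:89714772-89715071:
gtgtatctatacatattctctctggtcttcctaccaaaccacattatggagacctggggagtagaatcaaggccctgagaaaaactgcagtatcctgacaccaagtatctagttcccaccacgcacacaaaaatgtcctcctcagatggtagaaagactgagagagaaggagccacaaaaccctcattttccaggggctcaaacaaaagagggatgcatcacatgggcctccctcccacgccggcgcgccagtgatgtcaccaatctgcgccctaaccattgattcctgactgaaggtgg

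Adar downstream window, chr3:89730468-89730767:
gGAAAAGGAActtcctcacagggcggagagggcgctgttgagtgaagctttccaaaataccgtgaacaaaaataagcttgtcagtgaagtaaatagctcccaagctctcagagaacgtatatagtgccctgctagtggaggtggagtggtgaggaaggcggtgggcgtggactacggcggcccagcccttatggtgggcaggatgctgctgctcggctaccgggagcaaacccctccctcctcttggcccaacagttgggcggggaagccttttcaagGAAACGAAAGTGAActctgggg

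A fixed core of the interferon-stimulated response element was searched on both strands, as GAAA followed by GAAA with any 2 bases between. This pattern was found in 0 of the 10 windows that RefSeq gave for the 7 genes. A window without this exact pattern may still hold a variant of the element. The pattern was present in 3.44% of all 32851 windows. Counted by gene, it was present for 3.99% of 27025 genes with a window and for 12 of 21 genes of a type I interferon list. The shorter spellings were chosen after the sequences had been seen. In the downstream Adar window, GAAANNGAA matched at bases 2 to 10 and 284 to 292 and GAAANGAAA at bases 279 to 287. The matches at 279 to 287 and 284 to 292 overlap in a run of 14 bases, GAAACGAAAGTGAA, at chr3:89730746-89730759, which covers the start of Adar-203. The upstream Adar window and a further one that overlaps it, chr3:89714988-89715287, held neither spelling. Of all windows, 8.56% held GAAANNGAA, 3.17% held GAAANGAAA and 0.615% held both. Among the other members, 1 window of Mbnl1 held GAAANGAAA on the opposite strand. A match describes letters in the window and is not evidence of a bound factor.

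All 7 genes passed the filter of at least 10 counts in 1 library or both, as 12941 genes did. They were deeply counted, with 5280 to 15516 counts in a library, and 11.2% of the genes tested reached the CPM of the lowest of them. Log2 fold changes were computed from CPM after TMM scaling, with a prior count of 2, as shcircCsnk1g3 over shCTR. The range after each is a 95% Clopper-Pearson interval, which is exact for a ratio of 2 counts. It compares the libraries rather than the conditions and covers counting error only, with a half-width of 0.03 to 0.05 for these genes.

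Adar was higher and Qk slightly higher in the shcircCsnk1g3 library, and the other 5 members lay within 0.06 of 0. The median log2 fold change of the 7 was -0.03, beside 0.00 for all genes tested. None of the 7 reached 1.5-fold, the size used here to call a gene, which 5.39% of genes tested reached upward, 6.31% downward and 11.7% in either direction. That background rests largely on genes with fewer counts. Among the 3081 genes with a level in the range of the members, widened 2-fold at both ends, 0.747% were called higher, 1.36% lower and 2.11% either way. At 1.2-fold, 1 of the 7 was past the size, Adar, and it was higher. Of all genes tested, 15.7% were that far up, 16.4% that far down and 32.1% either way, and among the genes of member level 4.9%, 9.25% and 14.2%. The counting interval lay above 0 for Qk and Adar, as for 26.9% of all genes tested, and below 0 for Dhx9 and Mbnl2, as for 28.2%. The number below 0 depended on the scaling, with 0 members when libraries were scaled by total counts only and 3 with DESeq2 size factors. The counting interval left out 0 for 55.1% of all genes tested. Among genes of member level it lay above 0 for 31.5% and below 0 for 41.3%, or 72.8% together, so an interval that leaves out 0 is common at this depth.

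**Figure D1:**
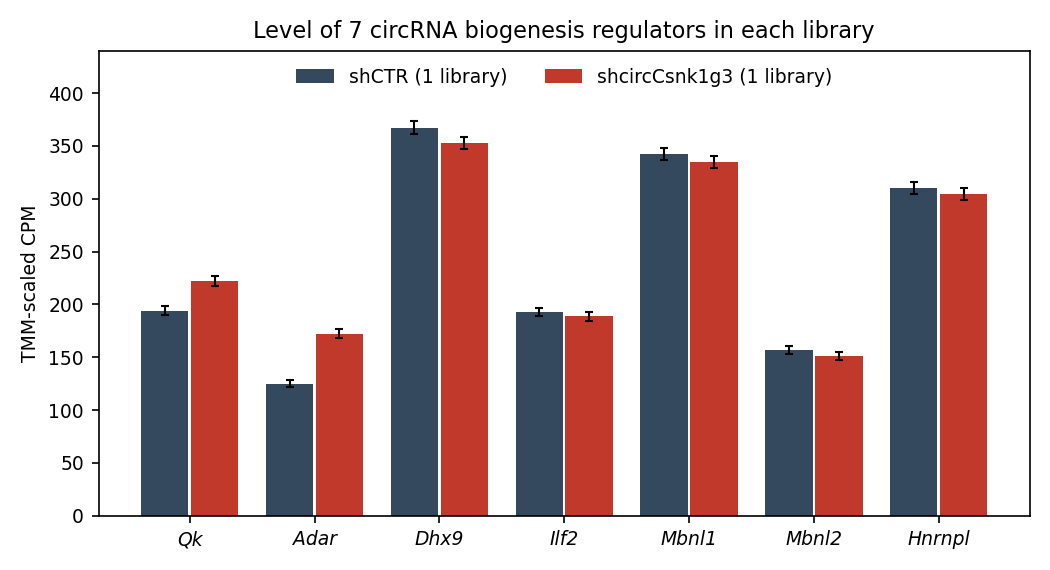
Level of each gene in TMM-scaled CPM in the shCTR library (dark) and the shcircCsnk1g3 library (red), 1 library each, with bars for the exact 95% Poisson counting interval. Adar stands at 125 CPM in shCTR and 172 CPM in shcircCsnk1g3, and Qk at 194 and 222 CPM, while the bars of the other genes lie close to each other.

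Adar (ENSMUSG00000027951) lies on the plus strand of chromosome 3, chr3:89715022-89753446, and encodes the adenosine deaminase that converts adenosine to inosine in double-stranded RNA. Adar had 6758 counts after silencing and 5280 in the control, or 172 and 125 CPM. The silenced library was thus the higher, although it was the shallower in total. The fold was 1.38 (1.33 to 1.43) and the log2 fold change 0.46 (0.41 to 0.52). Of 2674 tested genes with a mean level within 2-fold of that of Adar, 3.74% had a change at least as large in either direction and 1.35% one at least as high. The central 95% of those genes ran from -0.45 to 0.35, and Adar lay above that range. Over all genes tested, 16.4% changed at least as much. The counts are per gene and add up the p150 and p110 transcripts, so a change in either form cannot be told apart from a change in the other.

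Adar shares exon sequence with Chrnb2 on the opposite strand. Of its 50-base stretches, 19.5% occur in Chrnb2 on the other strand, and the kit was a stranded one, but the strand setting of the counting is not stated. Chrnb2 had 94 counts after silencing and 96 in the control, which is 1.39% and 1.82% of the Adar counts. No 50-base stretch of the coding Adar transcripts occurred on the same strand in another annotated gene. Adarb1, which encodes the related editing enzyme ADAR2, was lower, with 1603 and 1905 counts and a log2 fold change of -0.14 (-0.24 to -0.04). Adarb2 had 0 counts in both libraries. The count of Adar was 4.22 times that of Adarb1 after silencing and 2.77 times in the control, a ratio that differed by 0.61 (0.50 to 0.71) on the log2 scale. Adar thereby held 80.8% (80.0 to 81.7, exact) of the counts of the 3 deaminase genes in the silenced library and 73.5% (72.4 to 74.5) in the control. With no Adarb2 read, a floor of 3 counts allows it a share of up to 0.0359% and 0.0418%, and the exact interval used for Adar one of up to 0.0441% and 0.0513%.

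Dhx9 (ENSMUSG00000042699), on the minus strand at chr1:153455758-153487660, encodes an RNA helicase that unwinds paired inverted repeats and is known to associate with the p150 form of ADAR. It had 13833 counts in the silenced library and 15516 in the control, or 353 and 367 CPM. The log2 fold change was -0.06 (-0.09 to -0.02), the lowest of the 7, and a 3.95% lower level. Among 976 genes of like level, 69.1% changed at least as much, so Dhx9 was among the genes of smaller change. The ratio of Adar to Dhx9 counts was 0.489 after silencing and 0.340 in the control, a difference of 0.52 (0.46 to 0.58) on the log2 scale. The 2 members known to act against repeat pairing thus differed in the size of their change.

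Ilf2 (ENSMUSG00000001016), at chr3:90476126-90488379 on the plus strand, encodes NF45, a subunit of a complex that binds double-stranded RNA. Its counts were 7393 and 8143, or 189 CPM after silencing and 193 CPM in the control. The log2 fold change was -0.03 (-0.08 to 0.01), and 83.9% of 2078 genes of like level changed at least as much. Ilf2 shares 15.4% of its 50-base stretches with Snapin on the opposite strand, and Snapin had 1745 and 1947 counts.

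Qk (ENSMUSG00000062078), at chr17:10202601-10319854 on the minus strand, encodes quaking (QKI), a STAR-domain protein that promotes circles when its motif lies in both flanking introns. Its counts were 8696 after silencing and 8185 in the control, or 222 and 194 CPM. The silenced library was higher by 14.5% (11.0 to 18.0), a log2 fold change of 0.19 (0.15 to 0.24). Among 1884 genes of like level, 22.8% changed at least as much in either direction and 8.33% were at least as high, so Qk lay inside the central 95% of those genes, from -0.41 to 0.35. Subtracting the median change of genes of the same GC content and length reduced it to 0.11. The annotated coding transcripts of Qk include proteins of 341, 325 and 319 residues, the lengths of the nuclear QKI-5 and of the QKI-7 and QKI-6 forms, and the gene counts do not separate them. Khdrbs1, which encodes the STAR-domain protein SAM68, had a log2 fold change of 0.11 (0.06 to 0.16).

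The muscleblind genes encode zinc finger proteins that bind YGCY motifs in pre-mRNA, and MBNL1 is known to drive a circle from its own transcript. Mbnl1 (ENSMUSG00000027763), at chr3:60472830-60629750 on the plus strand, had 13129 counts after silencing and 14468 in the control, or 335 and 343 CPM. Its log2 fold change was -0.03 (-0.07 to 0.00), a change that 80.7% of 1054 genes of like level equalled or passed. With the correction for GC content and length it was -0.082, outside that interval. Mbnl2 (ENSMUSG00000022139), at chr14:120275669-120431697 on the plus strand, had 5924 and 6628 counts, or 151 and 157 CPM. Its log2 fold change was -0.05 (-0.11 to -0.00), and 73.0% of 2590 genes of like level changed at least as much. The remaining family gene, Mbnl3, had 403 and 419 counts and a log2 fold change of 0.05 (-0.15 to 0.25). Within the family, the shares of counts were nearly the same in both libraries. Mbnl1 held 67.5% after silencing and 67.2% in the control, Mbnl2 30.4% and 30.8%, and Mbnl3 2.07% and 1.95%. The ratio of Mbnl1 to Mbnl2 was 2.22 and 2.18, a difference of 0.02 (-0.04 to 0.08) on the log2 scale. Neither gene had a 50-base stretch of coding transcript in common with another gene on the same strand.

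Hnrnpl (ENSMUSG00000015165), at chr7:28808541-28822266 on the plus strand, encodes a ribonucleoprotein that binds CA-rich RNA and acts on both linear and back-splicing. It had 11943 counts after silencing and 13094 in the control, or 305 and 310.0 CPM. The log2 fold change was -0.03 (-0.06 to 0.01), and 85.4% of 1176 genes of like level changed at least as much, the highest share of the 7. With total counts only the direction turned, to 0.0061. Hnrnpll, its paralog, was lower at -0.11 (-0.17 to -0.05), with 3665 and 4263 counts. The ratio of Hnrnpl to Hnrnpll counts was 3.26 and 3.07, a difference of 0.09 (0.01 to 0.16) on the log2 scale. Of the 50-base stretches of Hnrnpl, 3.18% occur in Gm45246, which has no row in the count table.

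**Figure D2:**
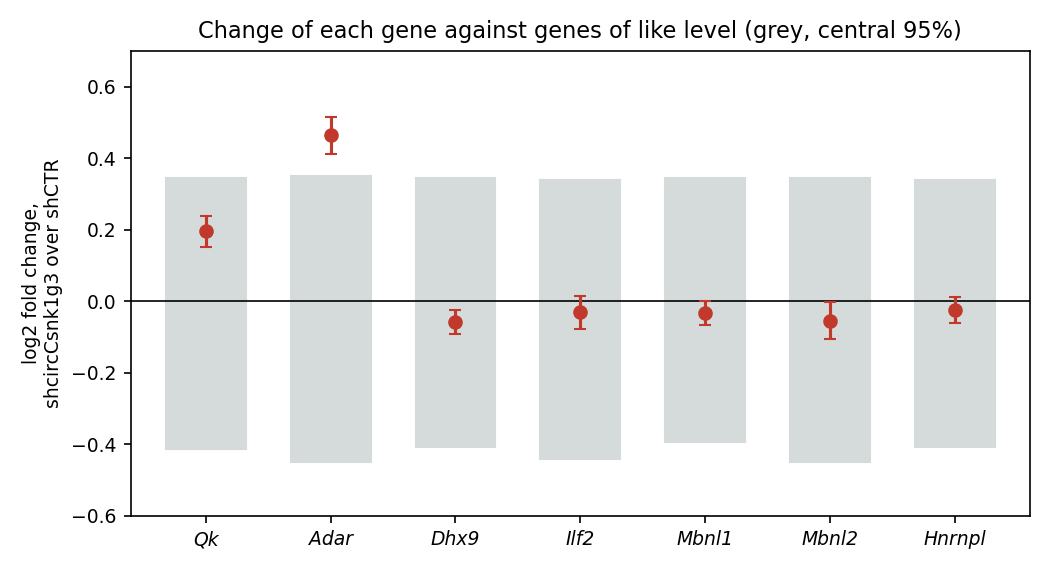
Log2 fold change of each gene, shcircCsnk1g3 over shCTR (points), with the exact 95% counting interval (bars) and, in grey, the central 95% of genes with a mean level within 2-fold. Adar at 0.46 lies above its grey range, which ends at 0.35, Qk at 0.19 lies inside, and the other 5 lie between -0.06 and -0.03.

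Set against each other, the members that bind introns differed in the size of their change. The ratio of Qk to Mbnl1 counts was 0.662 after silencing and 0.566 in the control, higher by 0.23 (0.17 to 0.28) on the log2 scale, and that of Qk to Hnrnpl was 0.728 and 0.625, higher by 0.22 (0.16 to 0.28). The ratio of Adar to Qk was 0.777 and 0.645, a difference of 0.27 (0.20 to 0.34). Ratios within a library do not depend on its scaling.

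Levels of different genes were compared per kilobase of exon. With all annotated exons as the length, Hnrnpl was the highest, at 51.2 CPM per kilobase after silencing and 52.1 in the control, followed by Dhx9 at 36.7 and 38.2 and Ilf2 at 22.0 and 22.5. Mbnl1 was at 17.9 and 18.3 CPM per kilobase, Adar at 21.2 and 15.4, Qk at 15.6 and 13.6, and Mbnl2 at 12.6 and 13.1. Adar was the fifth in the control and the fourth after silencing, where it passed Mbnl1. The order depends on the length used. By the longest transcript Adar was the lowest of the 7 in the control, at 21.2 CPM per kilobase, and by the median coding transcript Mbnl1 was the highest, at 153.6, ahead of Hnrnpl at 144.7. With no replicate libraries, it cannot be said which neighbours in these orders differ.

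**Figure D3:**
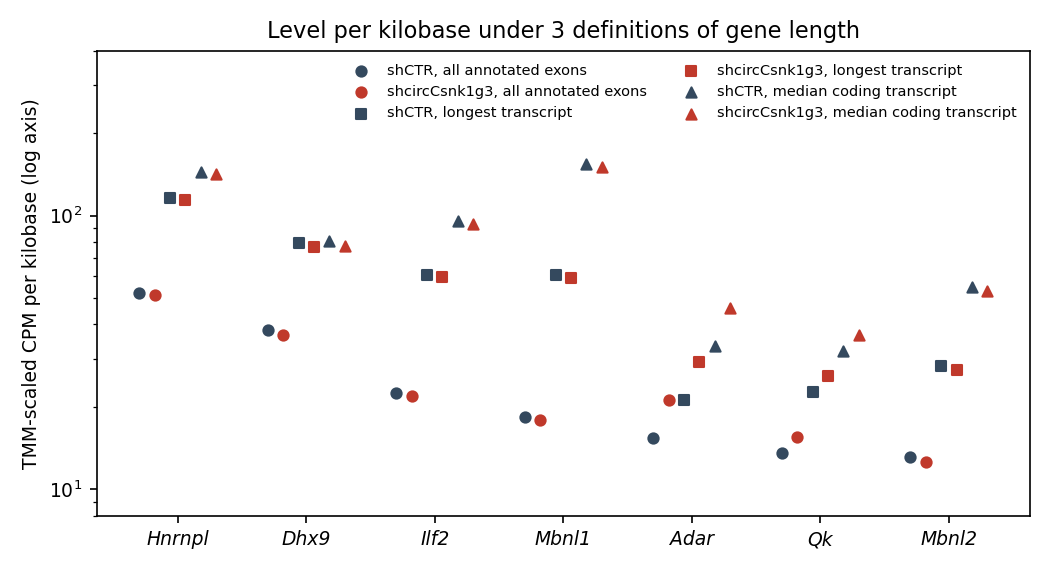
Level per kilobase of each gene on a log axis, in TMM-scaled CPM, with the length taken as all annotated exons (circles), the longest transcript (squares) or the median coding transcript (triangles), for shCTR (dark) and shcircCsnk1g3 (red), 1 library each. Hnrnpl is the highest under the first 2 definitions and Mbnl1 under the last, at 153.6 in shCTR, and all annotated exons give the lowest value for every gene.

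The wider machinery was described with lists of genes known for the same roles. Of 20 tested genes among other regulators of back-splicing, 15 were higher, 5 were lower and the median was 0.04, beside 6521 higher and 6420 lower of all genes tested. The interval of 7 lay above 0 and that of 2 below 0. Mettl14, of the m6A methyltransferase, was the highest of those with a mean of at least 10 CPM, at 0.20 (0.11 to 0.29) with 2118 and 1986 counts, and Adarb1 the lowest. The single gene of this list past 1.5-fold, Nova2, had 53 and 32 counts. It falls under the level required for naming and was picked out after its value was seen.

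Of 14 spliceosome and 3′ end processing genes, 7 were higher, 7 were lower, none was past 1.5-fold and the median was -0.03. They ran from -0.24 (-0.30 to -0.17) for Snrpd2, an Sm core protein, to 0.18 (0.11 to 0.26) for Slu7, a second-step splicing factor. Of 13 tested genes for export and turnover of circRNAs, 7 were higher, 6 were lower and none was past 1.5-fold, and the median was 0.03. Igf2bp1 was the highest of this list at 0.25 (0.17 to 0.33), and Tnrc6a, of the microRNA silencing complex, was the lowest with a mean of at least 10 CPM, at -0.14 (-0.20 to -0.08). Among 14 tested paralogs of the members, 8 were higher, 6 were lower and the median was 0.04. Changes ran from -0.28 (-0.37 to -0.18) for Dhx29 to 0.24 (0.13 to 0.35) for Dhx57 among genes of at least 10 CPM.

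Linear counts were also read for 18 genes that host circRNAs. Of these, 10 were higher, 8 were lower, none was past 1.5-fold and the median was 0.01. Rere was the highest at 0.18 (0.14 to 0.23), with 8923 and 8457 counts, and Ankib1 the lowest at -0.49 (-0.58 to -0.39), with 1531 and 2314. The difference in Ankib1 was thus about the size of that of Adar and in the other direction, while Csnk1g3 lay within counting error.

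Double-stranded RNA binding genes, an activity that ADAR and DHX9 share, had a higher median. Of 13 tested, 10 were higher, 3 were lower and the median was 0.13, and 2 were past 1.5-fold, both upward. Ddx58, the gene of the RNA sensor RIG-I, was at 0.82 (0.71 to 0.93) and Zbp1 at 1.55 (1.18 to 1.99) on 197 and 71 counts, the latter picked out after its value was seen. Of the 13, 5 stand also in the interferon list. Without them, 5 of 8 were higher, none past 1.5-fold, and the median was 0.02, from -0.35 (-0.54 to -0.16) for Stau2 to 0.16 (0.10 to 0.22) for Zfr.

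Adar is itself a known interferon-stimulated gene, and 29 other genes of that kind were tested. Of these, 28 were higher, 20 of them past 1.5-fold, with a median of 1.07, and 23 had a larger change than Adar. Among those with at least 10 CPM the ones past 1.5-fold ran from 0.59 (0.49 to 0.69) for Bst2 through Herc6, Ddx58, Stat2, Irf9, Parp14, Isg15 and Xaf1 to 1.89 (1.69 to 2.12) for Rtp4, and Ifit2 was the lowest at -0.09 (-0.25 to 0.06). Eif2ak2, which encodes the RNA-activated kinase PKR, was near Adar, at 0.43 (0.34 to 0.52) with 2415 and 1929 counts. Adar was counted more deeply, with a mean of 149 CPM against at most 80.5 CPM in the list, which is a statement on reads and not on levels, since lengths differ. That both Adar and this list were higher is given side by side. Whether the change of Adar belongs to that of the list was not tested.

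**Figure D4:**
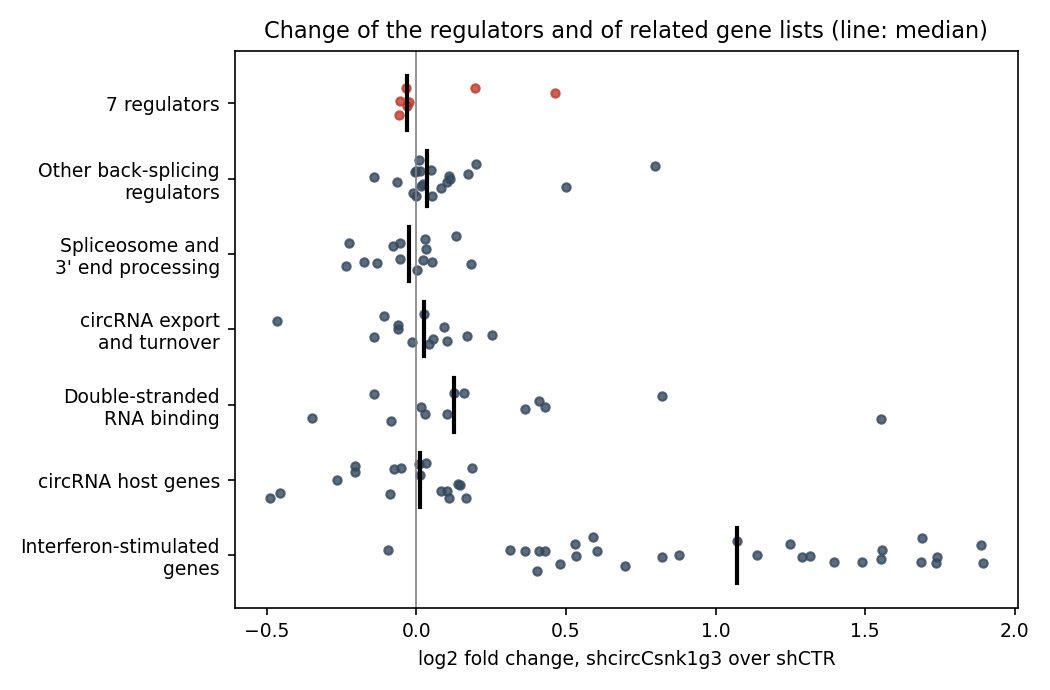
Log2 fold change, shcircCsnk1g3 over shCTR, of each tested gene (points) in the set of 7 regulators (red) and in 6 related lists (dark), with the median of each as a black line. The medians of the 5 lists other than interferon lie between -0.03 and 0.13, and that of the interferon-stimulated genes at 1.07.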

How the data were processed

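The libraries were made with the TruSeq Stranded mRNA kit. Per the article, the authors used bcl2fastq 2.20, STAR 2.6.1 on GRCm38 and RSEM 1.2.28, which splits reads that fit more than 1 gene. The deposited count table gives estimated counts rounded to whole numbers, with 92 spike-in rows at 0 that were not used. The other deposited table gives TMM-scaled signal (scaled CPM) for 11624 genes and served as an alternative.

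TMM factors (1.01 for shcircCsnk1g3, 0.989 for shCTR) and log2 fold changes came from edgeR 4.0.16 in R 4.3.3. The alternative DESeq2 size factors were also computed in R, and all else came from python 3.11.15 with scipy 1.17.1. A gene was tested where either library or both had at least 10 counts. Single ratios have Clopper-Pearson intervals and differences between 2 ratios normal approximations on the log scale. Both cover counting error only. Reads without molecular identifiers are not independent molecules, so even that error may be larger than the intervals show. At 1000 counts in each library the half-width was 0.13. Tested on simulated counts of 12862 genes, the steps recovered 200 of 200 changed genes to within 0.3 (log2), and 95.2% of intervals held the true ratio. The simulated counts had Poisson error only, and the changes were given to well-counted genes. The simulation thus checks the arithmetic of the steps and not the spread between real libraries.

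Annotation was GENCODE M21, which held 25251 of the 25509 identifiers, and the release the authors used is not given in the sources used here. The 7 genes and the lists were chosen with earlier results of these data known. Named genes were the 7, their partners and paralogs, the targeted and engineered genes, and from each list the genes past 1.5-fold and the highest and lowest, given a mean of at least 10 CPM. Alternatives were DESeq2 1.42.0 size factors, total counts, other prior counts, filters, fold sizes and lengths, and a GC and length correction. A planned comparison of protein sequences was not run. Results for some genes under this rule are not reported here.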

Additional observations from a re-analysis of the deposited data

How the results depend on the processing

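A change of scaling shifts every gene by nearly the same amount, and prior counts are small beside the counts of these genes. Those alternatives could thus hardly move a value out of its interval. Of 42 log2 fold changes of the 7 genes under alternatives, 40 stayed within their counting interval. The exceptions came with the GC and length correction, where Qk was at 0.11 and Mbnl1 was at -0.082. Adar ranged from 0.43 to 0.49 and Dhx9 from -0.06 to -0.03. Hnrnpl ranged from -0.04 to 0.01 and was above 0 with total counts only, a scaling that moved the median of all genes to 0.03 and left 0 members with an interval below 0, against 3 with DESeq2 size factors. At 1.2-fold, 1 member was called higher. The share of all genes past 1.5-fold upward was 3.01% in the deposited table, 11.0% with no count filter, 3.42% with at least 50 summed counts and 1.99% with at least 200, where the downward share was 3.14%. At 2-fold the shares were 2.13% and 2.55%. All 72 list medians under alternatives moved by no more than 0.5 of the interquartile range of their list, although the spliceosome list went from -0.03 to as high as 0.01. The interquartile range is the spread of single genes and is wide beside a shift common to all genes. A change of scaling could thus hardly pass that limit. No paired analysis was possible because each group was 1 library, and for the same reason no replicate could be left out. At this depth the sign of the change of Ilf2, Mbnl1 and Hnrnpl was within counting error, and variation between cultures was not measured.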
